A study of Mus musculus with 2 samples.

Results

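Diplotene and dividing spermatocytes were the cells of the testis suspension in which transcripts of the late meiotic prophase and of the meiotic divisions were detected more often than those of pachytene cells or round spermatids. A barcode was a member where it had 200 or more genes, at most 20% mitochondrial counts, less than 5% of its counts from Prm1, Prm2, Tnp1 and Tnp2 together, and a count of Piwil1 or Pou5f2. In addition, at least 3 genes of panel D (Ccna1, Aurka, Nek2, Cdc25c, Ttk and Bub1b) had to be detected, and more than of panel P (Piwil1, Mybl1, Sycp1, Adad2, Pou5f2 and Ovol2) and of panel R (Acrv1, Spaca3, Spaca7, Lyzl6, Lyzl4 and Tex36). This gave 1385 members among 29008 barcodes that passed the gene and mitochondrial filters, 1134 of 15139 WT barcodes and 251 of 13869 knockout barcodes. Because the members were chosen by detected genes of these same cells, the levels of the panel genes and the comparisons with other cells are descriptions, and none carries a test.

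The study compared testes of adult WT mice with testes of adult Nsun7 knockout mice, with 1 single-cell library per genotype. Nsun7 belongs to the NSUN genes, named for enzymes that methylate cytosine in RNA, and the title of the series describes it as catalytically inactive and as a regulator of sperm flagellum assembly. Per the labels, the tissue was minced, digested with enzymes, strained, exposed to a cell lysis buffer and rinsed; no sort is described. The labels do not give strain, exact age, the number of animals behind a library or the part of Nsun7 that was deleted. No difference between the genotypes therefore has a replicate check, and the 95% intervals below cover counting error only. The median WT member had 16041.5 counts and 4650 genes, and the median knockout member 8125 counts and 3167 genes. When the 1108 WT and 244 knockout members with 2000 or more counts were thinned to 2000, the medians were 1323 and 1311 genes. In all, 26220857 WT and 3558083 knockout counts lie behind the member values.

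In the long prophase of the first meiotic division, paired chromosomes synapse and recombine during pachytene, and the synaptonemal complex that joins them is taken apart in diplotene, when the homologues stay linked at crossovers. Entry into division depends on the cyclin-dependent kinase Cdk1 with its B-type cyclins, on Cdc25 phosphatases that activate it, and on Polo-like and Aurora kinases that build the spindle. The spindle checkpoint holds the anaphase-promoting complex until chromosomes are attached, and the complex then triggers separase. Male germ cells have a cyclin of their own at this step: Ccna1 (cyclin A1) is needed for spermatocytes to leave prophase. Diplotene and the divisions are short in the mouse testis, and spermatocytes also make many transcripts whose proteins are used later, in spermatids.

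The members were selected by transcripts detected together, so the stretches upstream of their genes are shown. For 5 of the panel D genes, the 120 bases before the RefSeq start (GRCm38.p6) are printed on the strand of the gene, with the letters CCAAT or their reverse complement ATTGG in capitals, which is the sequence bound by NF-Y and found before many cell division genes. No stretch is printed for Cdc25c, and it is not among the panel D genes searched below. This does not show that RefSeq lacks a start for it.
Ccna1 (chr3:55055056-55055175, minus strand): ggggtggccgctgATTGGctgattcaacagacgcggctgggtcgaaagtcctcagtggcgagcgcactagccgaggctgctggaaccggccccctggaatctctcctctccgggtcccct
Aurka (chr2:172370571-172370690, minus strand): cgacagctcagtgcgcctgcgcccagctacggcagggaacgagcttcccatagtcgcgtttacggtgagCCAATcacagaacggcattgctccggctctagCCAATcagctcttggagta
Nek2 (chr1:191821353-191821472, plus strand): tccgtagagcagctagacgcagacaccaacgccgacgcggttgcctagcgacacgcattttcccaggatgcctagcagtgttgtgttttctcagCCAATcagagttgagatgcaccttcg
Ttk (chr9:83834569-83834688, plus strand): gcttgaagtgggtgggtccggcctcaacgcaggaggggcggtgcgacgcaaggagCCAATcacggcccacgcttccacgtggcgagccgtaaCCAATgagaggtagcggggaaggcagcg
Bub1b (chr2:118598091-118598210, plus strand): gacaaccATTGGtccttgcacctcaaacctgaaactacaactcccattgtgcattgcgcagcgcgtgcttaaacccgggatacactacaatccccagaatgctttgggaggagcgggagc

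The printed bases of Aurka, Ttk and Bub1b lie outside the GENCODE M21 gene, those of Ccna1 lie within the gene but in no exon, and the last 29 bases of Nek2 overlap its first exon. Both strands of the full 300-base windows, from 250 bases before to 50 after the start, were searched for 2 motifs. CCAAT was in all 5 panel D windows and in 14 of 17 windows of 16 division markers that the rule did not use. Of 32851 RefSeq windows, with chromosome 18 kept, 37.4% held it. TTTGAA, the core of the cell cycle homology region bound by the DREAM complex, was in 3 of the 5 panel D windows (Aurka, Ttk and Bub1b), downstream of the start in each, and in 10 of the 17 windows, against 17.9% of all. Of the 5 windows found for the pachytene panel, 2 held CCAAT and 1 held TTTGAA. These matches describe letters in the window and not a bound site.

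The markers of other cells were checked before any comparison, and a part of the members held markers of earlier germ cells. The 12 spermatogonium markers together, among them Kit, Dmrt1 and Uchl1, stood at 221 CPM (counts of a gene per 1000000 counts summed over the cells of a class and library) in WT members and 271 CPM in knockout members, against 219 and 382 CPM in pachytene cells and 76.9 and 56.2 CPM in round spermatids. In 81 WT members (7.14%, exact Clopper-Pearson interval 5.71 to 8.80) and 13 knockout members (5.18%, 2.79 to 8.69), spermatogonium markers made up 0.1% or more of the counts. This limit was set after the data had been seen, and it fixes the levels of the 12 markers in the cells it divides, so only other genes were read there. Of these 81 and 13, 54 and 10 had only 3 or 4 panel D genes.

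**Figure D1:**
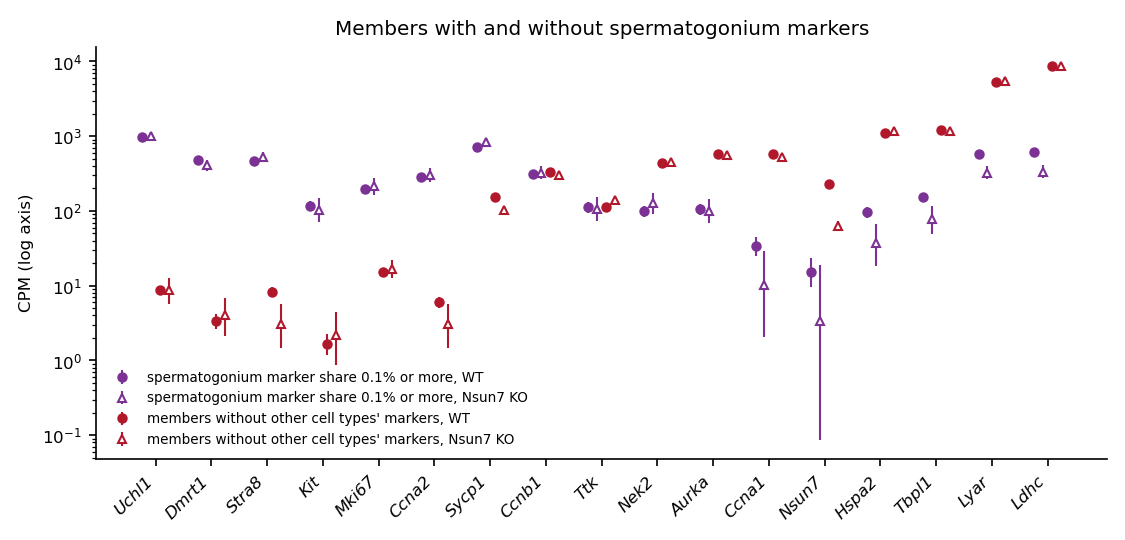
Levels (CPM, log axis) of 17 genes in members with a spermatogonium marker share of 0.1% or more and in members without markers of other cell types, by library; bars are exact Poisson intervals. Stra8 and Ccna2 lie above 250 CPM in the first set and below 10 CPM in the second, while Ccna1, Lyar and Ldhc are far lower in the first set.

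Some genes, though not all, differed between these members and the rest in the direction of cells at the start of meiosis. Stra8, the retinoic acid target needed to enter meiosis, was at 466 CPM in the WT cells with spermatogonium markers and at 8.34 CPM in the members without markers of other cells, and at 528 and 3.09 CPM in the knockout. For Ccna2, the cyclin A of mitotic cells, the WT values were 281 and 6.01 CPM and the knockout values 303 and 3.09 CPM. Ldhc, the germ cell lactate dehydrogenase of spermatocytes and spermatids, stood at 615 against 8739 CPM (WT) and 336 against 8572 CPM (knockout). Ccna1 itself was at 33.6 CPM (24.7 to 44.5) in these WT cells and at 576 CPM in the rest, and Sycp1, an element of the synaptonemal complex, at 715 and 154 CPM. Both are genes of the rule. Other synapsis genes were not higher in these WT cells: Sycp2 (178 and 261 CPM), Sycp3 (424 and 446 CPM) and Hormad1 (84.6 and 108 CPM). Of panel D in WT, Aurka (106 and 570 CPM) and Nek2 (98.6 and 441 CPM) were lower. Ttk was close (112 and 113 CPM), and Cdc25c (49.6 and 25.2 CPM) and Bub1b (119 and 87.5 CPM) were higher. Ccnb1 was close in both sets, at 315 and 336 CPM in WT. The levels of Stra8, Ccna2, Ldhc and Ccna1 in these 81 and 13 cells go against the label of diplotene and dividing spermatocytes. The counts of the gene lists below are therefore also given without the members holding markers of other cells (92 WT and 14 knockout). In those counts only members were left out, while pachytene cells and round spermatids with such markers stayed in.

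Somatic markers were low. The 8 Leydig markers summed to 143 CPM (WT) and 189 CPM (knockout), against 33303 and 35872 CPM in barcodes with 1% or more of their counts from steroid synthesis genes (Leydig cells, 314 and 336), and 3 WT and 1 knockout members were at 1% or more themselves. The 10 Sertoli markers summed to 339 and 184 CPM, and 10 WT and no knockout members had 1% or more of their counts from them. Sums of the 8 macrophage markers (49.0 and 45.5 CPM), the 9 stroma and myoid markers (54.4 and 38.5 CPM) and the 5 endothelial markers (7.06 and 5.62 CPM) were at or below the library level, and Cdh5 and Vwf were at 0 in knockout members. Leptotene and zygotene markers were at 717 and 666 CPM, below the 1214 and 1083 CPM of pachytene cells. Scrublet called 3.26% of WT and 1.99% of knockout members doublets, against 4.36% and 4.72% of all kept barcodes, and these were not removed. In 2168 cases a barcode name occurred in both libraries, but the names are running numbers and not sequences, so they say nothing of shared cells.

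Panel D set the members apart, and its genes were read beside pachytene cells (3 or more of panel P and more than of panels D and R under the same filters, 608 WT and 142 knockout) and round spermatids (3 or more of panel R and more than of D and P, less than 5% protamine and transition protein counts, 3000 or more counts, with Piwil1 or Pou5f2 not required, 1729 and 719). Ccna1 was at 540 CPM in WT members (531 to 549) and 473 CPM in knockout members (451 to 496), at 201 and 200 CPM in pachytene cells, and at 251 and 183 CPM in round spermatids. Aurka, the kinase of spindle poles, was at 538 and 518 CPM in members, 275 and 289.5 CPM in pachytene cells and 149 and 99.7 CPM in round spermatids. The centrosomal kinase Nek2 was at 417 and 422 CPM in members, and pachytene cells held 314 and 319 CPM of it. Ccna1, Aurka, Ttk and Bub1b were thus higher in members than in either neighbour in both libraries, and so was Nek2.

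Cdc25c, the phosphatase that activates Cdk1, did not follow this order. It was at 26.5 CPM (24.6 to 28.6) in WT and 19.1 CPM (14.8 to 24.2) in knockout members, near absent from pachytene cells at 1.32 and 3.90 CPM, and higher in round spermatids at 42.9 and 37.1 CPM. After thinning to 2000 counts, 5.14% of WT members (3.92 to 6.61) and 2.87% of knockout members (1.16 to 5.82) held a Cdc25c count, against 8.62% and 7.09% of round spermatids. Ttk, the checkpoint kinase Mps1, was at 112 and 138 CPM in members and at 86.3 and 79.9 CPM in pachytene cells, and Bub1b, the checkpoint protein BubR1, was at 88.3 and 86.6 CPM in members and at 10.9 and 7.95 CPM in round spermatids.

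**Figure D2:**
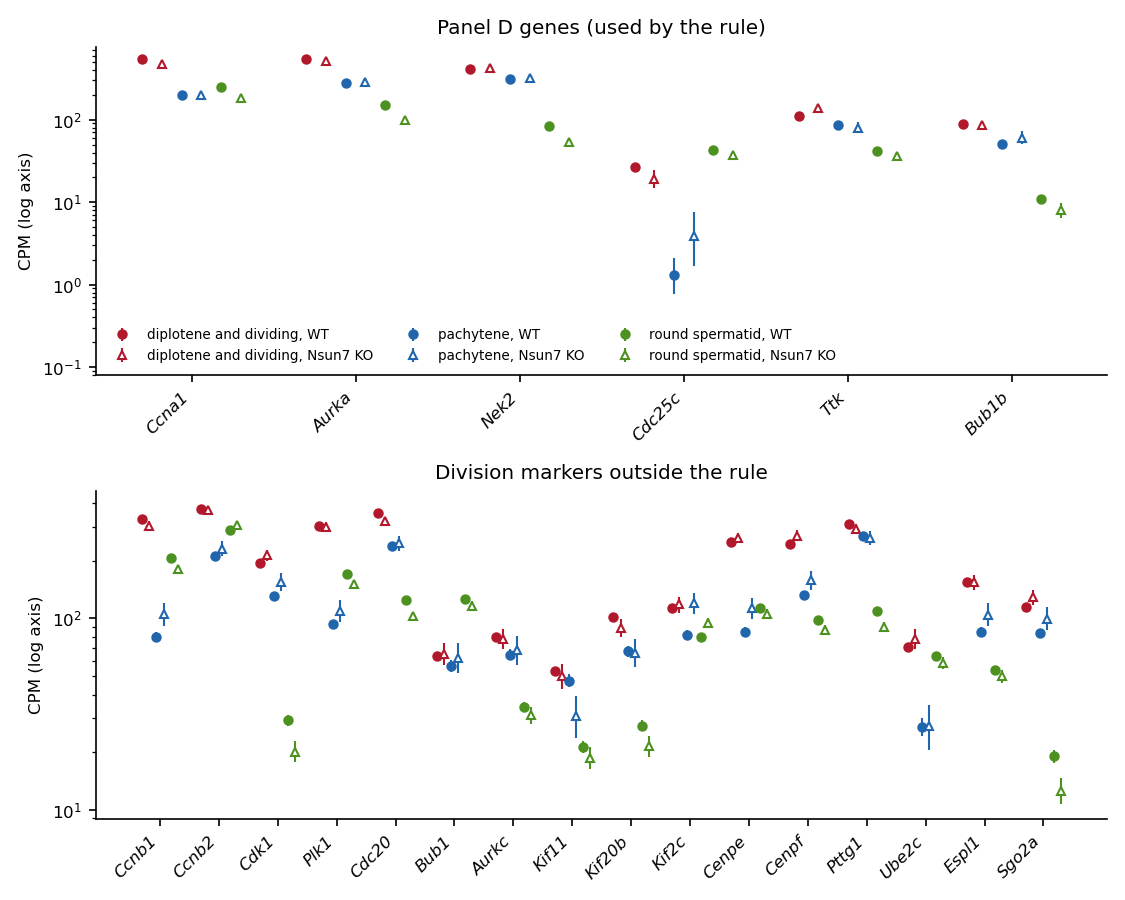
Levels (CPM, log axis) of the panel D genes (upper panel) and of 16 division markers that the rule did not use (lower panel) in members, pachytene cells and round spermatids of each library; bars are exact Poisson intervals. Ccnb1 is at 331 and 303 CPM in members and at 80.4 and 105 CPM in pachytene cells, and Cdc25c and Bub1 are highest in round spermatids.

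Shares of cells with a count were compared at equal depth. After thinning, 59.1% of WT and 63.9% of knockout members held a Ccna1 count. Pachytene cells did in 23.7% and 29.8%, and round spermatids in 37.5% and 28.5%. Leydig cells, a somatic type that should lack these transcripts, held a count in 3.69% (WT) and 0.311% (knockout) of cells. Unthinned, at median depths of 16041.5 and 8125 counts in members and 10336.5 and 14179.5 in Leydig cells, the shares were 91.2% and 89.6% of members and 17.2% and 3.87% of Leydig cells. Thinned shares for Aurka were 62.9% and 61.1% of members, 34.0% and 45.8% of pachytene cells and 22.6% and 15.2% of round spermatids. For Bub1b they were 17.4% and 18.0% of members, 6.97% and 9.16% of pachytene cells and 1.91% and 2.36% of round spermatids.

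All 6 panel genes were detected in 337 WT members (29.7%) and 27 knockout members (10.8%), and 3 of them in 145 (12.8%) and 52 (20.7%). This number followed depth, with medians of 4772 counts at 3 genes and 37958 counts at 6 genes in WT. Just inside the limit, the WT members with 3 panel D genes had Ccna1 at 256 CPM and Ccnb1 at 223 CPM. The 50 WT barcodes just outside it, with 2 panel D genes and fewer of the other panels, had these genes at 197 and 116 CPM (Ccna1 and Ccnb1). Barcodes in which panel D was level with the larger other panel, 843 in WT and 159 in the knockout, had Aurka at 437 and 368 CPM, against 546 and 528 CPM in members ahead by 1 gene.

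A part of the division genes that the rule did not use was higher in members than in pachytene cells. Of 16 such markers, 6 (Ccnb1, Ccnb2, Cenpe, Cenpf, Plk1 and Ube2c) were 1.5 times or more higher in both libraries and none was that much lower, and the median log2 ratios were 0.56 (WT) and 0.49 (knockout). Of the 8209 genes averaging 10 CPM or more, 5.02% were that much higher and 7.36% that much lower in both libraries, and the medians were -0.05 and -0.06. Ccnb1, the B-type cyclin of Cdk1, was 4.12-fold higher in WT (3.87 to 4.39) and 2.88-fold in the knockout (2.49 to 3.35). Plk1, the Polo-like kinase of division entry, was at 305 and 300 CPM in members and 93.2 and 109 CPM in pachytene cells, 3.27-fold and 2.74-fold higher. Cenpe, the kinetochore motor, was 2.98-fold and 2.33-fold higher. The same 6 markers of 16, and none lower, passed without the members holding other cells' markers, where 6.82% of 7938 genes were higher and 15.3% lower. Genes of these lists also take part in mitosis, and the lists share members with each other.

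**Figure D3:**
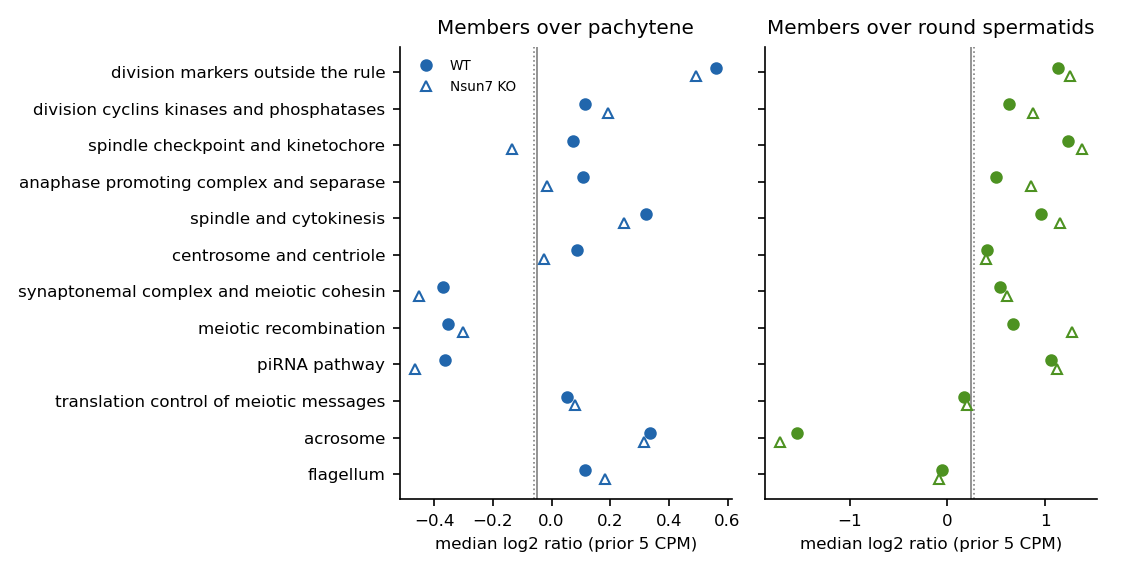
Median log2 ratio (prior of 5 CPM) of 12 gene lists in members over pachytene cells (left) and over round spermatids (right), by library; grey lines are the medians of all genes at 10 CPM or more (solid WT, dotted knockout). Lists of synapsis, recombination and piRNA lie below the line over pachytene cells and above it over round spermatids, while the acrosome list lies above it on the left and far below it on the right.

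Most of the wider lists of the division machinery held genes called in both directions. Over all genes, 5.02% were higher and 7.36% lower than in pachytene cells, and 6.82% and 15.3% without the members holding other markers. Among 26 cyclins, kinases and phosphatases, 7 were higher than in pachytene cells (Bora, Ccna2, Ccnb1, Ccnb2, Cdc25a, Cdkn3 and Plk1) and 5 lower (Arpp19, Ccne2, Cdk2, Cks2 and Fbxo43). Ccna2 is one of the genes carried by the spermatogonium marker cells; without the members holding other markers it no longer passed, Haspin, the histone kinase of centromeres, did, and 7 of 24 were higher and 5 lower, with Ensa in place of Fbxo43. Cdc25a, another Cdk1 phosphatase, was at 201 and 191 CPM in members against 61.4 and 63.9 CPM in pachytene cells. Cks2, a small Cdk subunit needed in meiosis, was lower in members at 178 and 132 CPM than in pachytene cells at 561 and 431 CPM. Fbxo43 (Emi2), an inhibitor of the anaphase-promoting complex, was at 43.5 and 36.3 CPM against 78.3 and 61.4 CPM.

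Kinetochore and checkpoint genes gave 7 higher and 4 lower of 36, with Spc25, a subunit of the Ndc80 complex, 3.03-fold and 3.55-fold higher at 113 and 100.3 CPM. Cenpa is among the 7, but it was at 306 CPM in the WT spermatogonium marker cells and at 1.92 CPM in members without other markers. Without the members holding other markers, 6 of 33 were higher and 7 lower, and Cenpa and Ndc80 were no longer among the higher ones. The spindle and cytokinesis list gave 6 higher (Ckap2l, Kif18b, Kif22, Kif23, Kifc1 and Nusap1) and none lower of 36, and 7 higher and 3 lower (Numa1, Ckap2 and Ckap5) of 35 without the members holding other markers. Kif23, the central spindle motor, was at 170 and 160 CPM against 59.0 and 61.9 CPM. The anaphase-promoting complex list gave 4 higher (Anapc10, Cdc27, Fzr1 and Ube2c) and 2 lower of 20, and the centrosome list 2 higher and 1 lower of 24. Without the members holding other markers, these counts were 4 higher and 5 lower of 20, and 2 higher and 2 lower of 24. The shares there were 18.2% higher and 21.2% lower (kinetochore), 20% and 8.57% (spindle), 20% and 25% (anaphase-promoting complex) and 8.33% and 8.33% (centrosome). Over all genes they were 6.82% and 15.3%, so the centrosome shares and that of lower spindle genes are near or under these. The lower centrosome gene over all members, Ccp110, which caps centrioles, was at 119 and 112 CPM against 350 and 287 CPM.

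Some genes of synapsis, recombination and the piRNA pathway were lower in members than in pachytene cells. Of 22 genes of the synaptonemal complex and cohesin, 5 were 1.5 times or more lower in both libraries (Hormad1, Syce3, Sycp2, Sycp3 and Tex12) and none higher. Tex12, a central element protein, was at 23.7 and 19.95 CPM in members and 68.1 and 76.0 CPM in pachytene cells, and Sycp3, the axis protein, at 441 and 348 CPM against 673 and 668 CPM. Of 20 recombination genes, 5 were lower, among them Atr, Hfm1, Mdc1 and Top2b, and none higher. Hfm1, a helicase needed for crossovers, was at 14.7 and 7.87 CPM against 45.01 and 32.2 CPM. Of 21 piRNA genes, 7 were lower (Asz1, Gpat2, Piwil2, Pld6, Tdrd1, Tdrd5 and Tdrkh) and none higher. Tdrd5, needed for piRNA biogenesis in pachytene, was at 45.4 and 42.4 CPM against 145 and 125 CPM. Without the members holding other cells' markers, 9 of 22 synaptonemal and cohesin genes, 4 of 17 recombination genes and 9 of 21 piRNA genes were lower and none higher, beside 15.3% of all genes lower. With all members, 7.36% of all genes were lower. Pachytene cells were not cleared of such markers, with spermatogonium markers at 219 (WT) and 382 CPM (knockout) and Sertoli markers at 1014 and 820 CPM. The part of this in the changed counts was not tested.

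A few spermatid genes were higher than in pachytene cells. Of 24 acrosome genes, 4 were higher (Fam170b, Izumo3, Spaca1 and Spesp1) and none lower, where 5.02% of all genes were higher and 7.36% lower. In the members without other markers, 9 of the 24 (37.5%) were higher and none lower, beside 6.82% and 15.3% of all genes. Spaca1, a membrane protein of the acrosome, was at 49.3 and 39.9 CPM in members, 15.6 and 13.2 CPM in pachytene cells and 804 and 834 CPM in round spermatids. Of 57 flagellum genes, 4 were higher (Fsip1, Tekt2, Tekt3 and Tekt4) and none lower, with medians of 0.12 and 0.18, and 5 (8.77%) were higher and none lower without the members holding other markers. Both shares of higher flagellum genes are near those of all genes. Tekt4, a tektin of axonemal microtubules, was at 281 and 271 CPM, 99.1 and 121 CPM, and 506 and 538 CPM in the 3 kinds of cell. Foxj1, a regulator of ciliary genes, was at 59.5 and 54.5 CPM in members and at 11.0 and 9.26 CPM in pachytene cells. Nsun7 was also higher, at 217 CPM in WT members against 136 CPM in pachytene cells.

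Among genes averaging 50 CPM or more, 31 of 3689 (0.84%) were 2 times or more higher in members than in pachytene cells in both libraries and 40 (1.08%) lower. With trimmed mean scaling the counts were 48 and 26, and without the members holding other markers they were 47 and 89. After Ccnb1, Spc25, Cdc25a and Plk1, the most strongly higher were Fa2h, which hydroxylates fatty acids of membrane lipids, Kif23, Rfx8, Cenpe, the axonemal dynein intermediate chain Dnaic2, and Zmynd15, a repressor needed by spermatids. Rfx8, a transcription factor of the RFX family, was at 339 and 344 CPM in members and 124 and 133 CPM in pachytene cells. Dnaic2 was at 233 and 209 CPM against 87.1 and 81.4 CPM, and Zmynd15 at 233 and 234 CPM against 79.5 and 102 CPM.

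The lower genes were Clu, Ctsl, Tex101, Cks2, Cst9, Aard, Fbxo3, Tdrd5, Cst12 and Ccp110. Tex101, a germ cell surface protein, was at 83.8 and 58.2 CPM in members and at 260 and 226 CPM in pachytene cells. Clu, Cst9, Aard and Cst12 are Sertoli products and are among the 10 Sertoli markers, which summed to 339 and 184 CPM in members and to 1014 and 820 CPM in pachytene cells. All 8 measured Sertoli markers were 1.5 times or more lower in both libraries, beside 7.36% of all genes. Without the members holding other markers, all 7 measured were, beside 15.3% of all genes. Ctsl, also made by Sertoli cells, was at 72.7 and 42.2 CPM against 204 and 242 CPM. Leydig cells of the WT and knockout libraries also held Clu (2353 and 2136 CPM), Ctsl (572 and 512 CPM) and Aard (198 and 220 CPM). They held less Cst9 (35.8 and 26.4 CPM) and Cst12 (62.4 and 14.8 CPM). The part of Sertoli RNA in these 5 differences was not tested.

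More genes stood apart from round spermatids than from pachytene cells. Of 3843 genes, 450 (11.7%) were 2 times or more higher in members in both libraries and 780 (20.3%) lower; with trimmed mean scaling, which shifts the ratios by 0.23 in WT and 0.43 in the knockout on the log2 scale, the counts were 271 and 907. The 10 highest were Ube2t, Zfp956, Mllt10, Cdca8, Tcam1, Mphosph8, Slc2a3, Tchp, Calm2 and Lsm3. Cdca8 (borealin), which holds Aurora B at centromeres, was at 268 and 256 CPM in members, 257 and 274 CPM in pachytene cells and 30.7 and 17.0 CPM in round spermatids, 8.73-fold (8.17 to 9.34) and 15.1-fold (13.0 to 17.6) higher in members. Slc2a3, the glucose transporter GLUT3, was at 1437 and 1247 CPM in members and 177 and 114 CPM in round spermatids. Each of the 10 was higher in pachytene cells than in members in both libraries, except Cdca8 in WT and Tcam1 in the knockout. For Zfp956 the difference lay within counting error, with members over pachytene cells at 0.98-fold (0.94 to 1.02) in WT and 0.99-fold (0.89 to 1.10) in the knockout. The same held for Cdca8 in the knockout, at 0.94-fold (0.84 to 1.04).

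Most genes of 3 division lists were higher in members than in round spermatids. The median log2 ratio of all 8605 genes at 10 CPM was 0.25 in WT and 0.27 in the knockout, with 30.1% of genes 1.5 times or more higher in both libraries and 26.3% lower. Against this, 21 of 29 kinetochore genes were higher and 2 lower (medians 1.23 and 1.37), 23 of 35 spindle genes higher and 2 lower (0.95 and 1.15), and 12 of 16 division markers higher and 1 lower (1.13 and 1.25). With the members holding other markers left out, 20 of 27 kinetochore genes were higher and 2 lower, 23 of 33 spindle genes higher and 2 lower, and 12 of 16 division markers higher and 1 lower, beside 28.4% of 8314 genes higher and 28% lower. Cdk1 was at 195 and 214 CPM in members and 29.4 and 20.1 CPM in round spermatids. The exception among the 16 was Bub1, a checkpoint kinase, at 63.4 and 65.5 CPM in members and 126 and 117 CPM in round spermatids. Ccnb2 did not pass either way, with 372 and 367 CPM in members and 290 and 307 CPM in round spermatids.

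The piRNA list was higher in members for 12 of 21 genes and lower for 2 (Gtsf1 and Rnf17), and the recombination list for 10 of 17 and lower for 2 (Msh4 and Tex15). The synaptonemal and cohesin list was divided, with 10 of 23 higher and 6 lower; Rec8, the meiotic cohesin of sister chromatids, was at 12.6 and 11.0 CPM in members and 107 and 123 CPM in round spermatids. Acrosome genes were lower in members for 19 of 32 and higher for 2 (Adam2 and Gopc). Of 58 flagellum genes, 12 were higher and 17 lower. Beside these counts, 30.1% of all 8605 genes were higher and 26.3% lower. Without the members holding other markers, 28.4% of 8314 genes were higher and 28% lower. Once the members holding other markers were left out, 12 of 20 piRNA genes were higher and 2 lower, 7 of 14 recombination genes higher and 3 lower, 9 of 22 synaptonemal and cohesin genes higher and 7 lower, 2 of 32 acrosome genes higher and 19 lower, and 12 of 58 flagellum genes higher and 16 lower. Among the higher flagellum genes over all members were the outer dynein heavy chains Dnah8 and Dnah17 and the assembly factor Zmynd10, and among the lower ones the fibrous sheath genes Akap3 and Akap4. The 10 lowest genes were Spata31, Lyzl1, Iqca1l, Triml1, Eqtn, Fam24b, Hsfy2, Hyal5, Sox5 and Spam1. Spam1, the sperm hyaluronidase, was at 5.95 and 3.93 CPM in members and 215 and 228 CPM in round spermatids, and the acrosomal Eqtn was at 7.06 and 5.06 CPM against 254 and 308 CPM.

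The members varied among themselves along the number of panel D genes detected. In WT, members with 3, 4, 5 and 6 panel D genes had Plk1 at 150, 223, 284 and 341 CPM, and in the knockout at 191, 250.4, 284 and 365 CPM. Ldhc went from 3973 to 6644, 8425 and 8631 CPM in WT. Sycp1 was lower with 6 than with 3 genes, at 405, 441, 199 and 116 CPM (WT) and 396, 234, 162 and 91.9 CPM (knockout). It is a gene of panel P, so the rule itself bears on its level. Tex101 was at 184 CPM with 3 panel D genes and 40.2 CPM with 6 in WT, and at 235 and 28.4 CPM in the knockout. Pachytene cells held it at 260 (WT) and 226 CPM (knockout). The 16 division markers summed to 2020 CPM with 3 and 3313 CPM with 6 panel D genes in WT, the acrosome list to 3282 and 6522 CPM, and the recombination list to 1607 and 1442 CPM. Depth was greater with each further gene, and the groups with 3 or 4 genes held 54 of the 81 WT members with spermatogonium markers; the part of either in these differences was not tested.

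**Figure D4:**
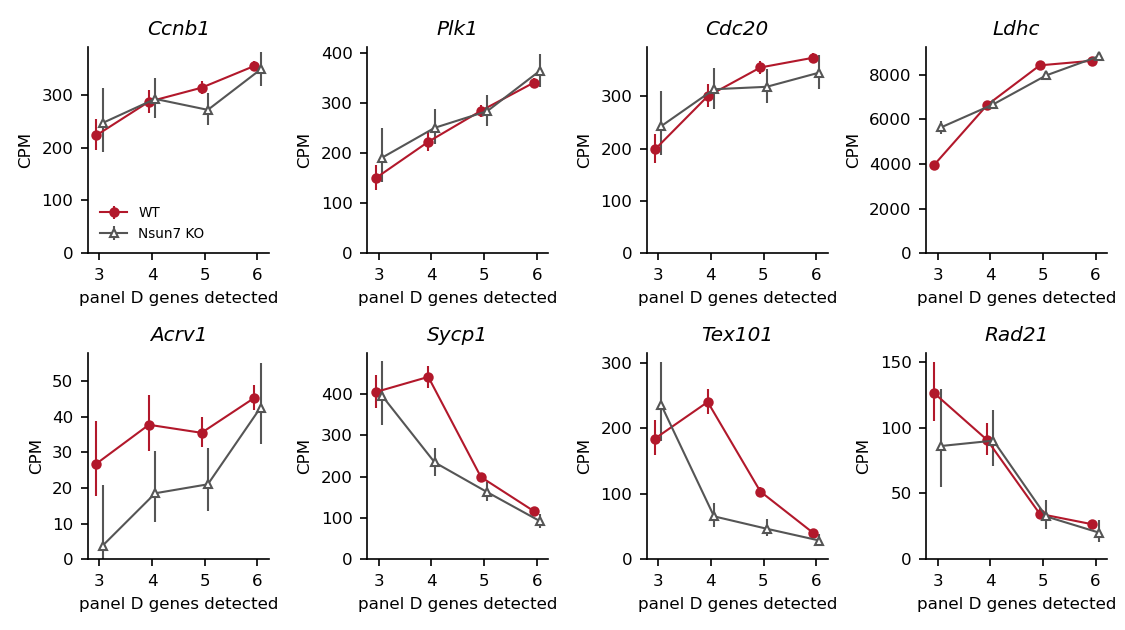
Levels (CPM) of 8 genes in members with 3, 4, 5 or 6 panel D genes detected, WT and Nsun7 knockout; bars are exact Poisson intervals. Ccnb1, Plk1, Cdc20 and Ldhc are higher with 6 than with 3 genes in both libraries, and Sycp1, Tex101 and Rad21 are lower.

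At equal depth most members held several further division transcripts. After thinning to 2000 counts, 83.5% of WT members (81.2 to 85.6) and 84.0% of knockout members (78.8 to 88.4) had 3 or more of the 16 division markers that the rule did not use, and 1.35% and 1.64% had none. WT members with 3 or more had panel D genes at a sum of 1813 CPM and panel P genes at 706 CPM. The 54 WT members with 1 such marker had 950.4 and 1062 CPM. This number was not read in pachytene cells or round spermatids. In thinned WT cells, Ccnb1 was held by 43.3% of members, 13.6% of pachytene cells and 32.6% of round spermatids. These shares were 47.6%, 33.6% and 20.4% for Cdc20, 40.5%, 12.7% and 26.7% for Plk1, and 29.9%, 23.5% and 5.61% for Cdk1.

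The knockout library held a smaller share of members. They made up 7.49% of kept barcodes in WT (7.08 to 7.92) and 1.81% in the knockout (1.59 to 2.05), a 4.14-fold difference with no replicate check. Barcodes with 5000 or more counts were also thinned to 5000 and the rule applied anew. The shares were then 7.60% of 10024 WT and 1.39% of 10133 knockout kept barcodes. This left out the 5115 WT (33.8%) and 3736 knockout (26.9%) kept barcodes with fewer counts. Most of the gap was present before panel D was read: 9405 of 15139 WT and 4384 of 13869 knockout barcodes had less than 5% protamine and transition protein counts, and of these 4023 and 909 had a count of Piwil1 or Pou5f2. Among barcodes under 5%, members were 12.1% in WT and 5.73% in the knockout. Without the requirement of Piwil1 or Pou5f2, the shares of kept barcodes were 11.4% and 4.54%.

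The number of members relative to pachytene cells was close in both libraries. They made up 65.1% of members plus pachytene cells in WT (62.8 to 67.3) and 63.9% in the knockout (58.9 to 68.6), 64.6% and 65.3% with the thinned rule, and 73.2% and 80.3% where Piwil1 or Pou5f2 was not required of either. Relative to round spermatids the values differed, with members at 39.6% of members plus round spermatids in WT (37.8 to 41.4) and 25.9% in the knockout (23.1 to 28.8), and 34.9% and 20.1% with the thinned rule. Round spermatids were not held to a count of Piwil1 or Pou5f2, and where members were not held to it either, the shares were 50.04% and 46.7%. Cell recovery from 1 suspension per genotype cannot be told apart from genotype here.

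Nsun7 itself was lower in the library labelled knockout. It stood at 217 CPM in WT members (211 to 223) and at 57.6 CPM in knockout members (49.998 to 66.1), 3.76-fold lower (3.27 to 4.35). Pachytene cells were at 136 and 29.7 CPM, round spermatids at 225 and 42.8 CPM, and Leydig cells at 17.7 and 2.91 CPM. After thinning, 30.4% of WT members and 9.43% of knockout members held an Nsun7 count, against 2.68% and 1.24% of Leydig cells. Unthinned, these shares were 79.5% and 35.9% of members and 16.2% and 4.17% of Leydig cells. Nsun7 (GRCm38 chr5:66259897-66298026, plus strand, protein coding) was thus reduced but not at 0 in knockout members, and counts from outside the deleted part would not test the deletion.

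Few other genes stood apart between WT and knockout members. Among 3759 genes averaging 50 CPM or more, 1 (0.0266%) was 2 times or more higher in knockout members and 2 (0.0532%) were lower. The higher one, named because the count is small, was 1700034E13Rik, with 44.1 CPM (WT) and 96.7 CPM (knockout). The lower ones were Nsun7 and Clu, at 148 and 52.3 CPM. Without the members holding other cells' markers, Clu was at 53.7 and 41.7 CPM and no longer passed, while Tex101 did, at 76.1 and 35.5 CPM. At 1.5 times and a mean of 10 CPM, 116 of 8378 genes (1.38%) were higher and 39 (0.466%) lower, and the median log2 ratio of all these genes was 0.00. Without the members holding other markers these shares were 1.55% and 0.595% of 7737 genes.

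**Figure D5:**
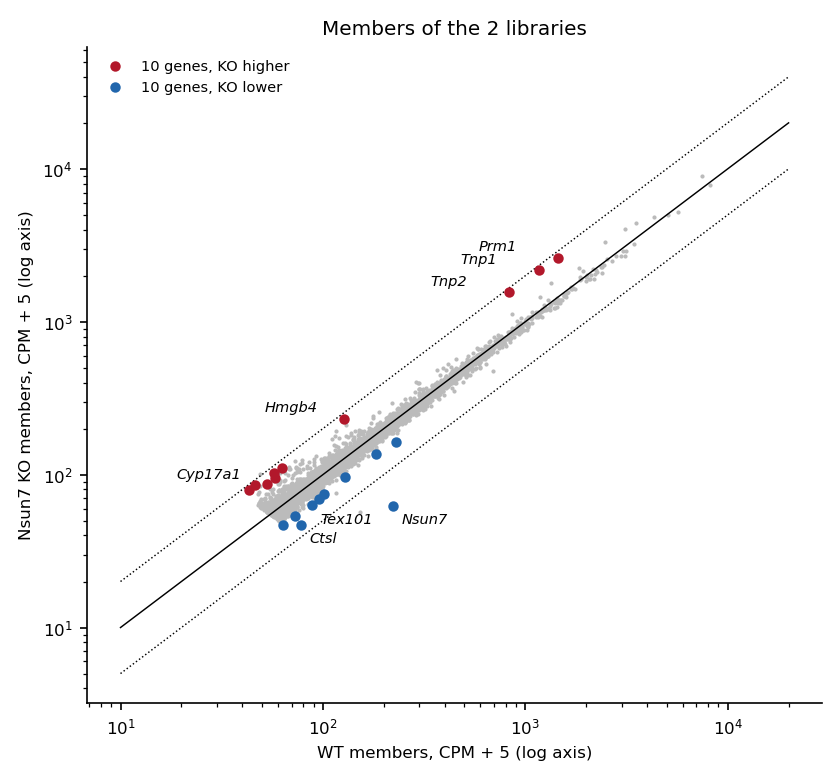
Level in knockout members against level in WT members (CPM + 5, log axes) for 3759 genes averaging 50 CPM or more; the solid line marks equal levels and the dotted lines a 2-fold difference. Among the 20 coloured genes, Nsun7 is the only one outside the dotted lines.

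Division genes were close between the genotypes. Beside the list counts, 1.38% of all 8378 genes were 1.5 times or more higher in the knockout and 0.466% lower. Without the members holding other markers, these shares were 1.55% and 0.595% of 7737 genes. None of the 16 division markers was 1.5 times or more apart, with or without the members holding other markers, with a median log2 ratio of -0.01, and none of the 6 panel D genes was, from Cdc25c at -0.39 to Ttk at 0.29. Plk1 was at 305 CPM in WT members (298 to 312) and 300 CPM in knockout members (282 to 318), and Ccnb2 at 372 and 367 CPM. Cdk1 was at 195 CPM (190 to 201) and 214 CPM (199 to 229), and Cdc20, the activator of the anaphase-promoting complex, at 354 and 322 CPM. Of 27 cyclins, kinases and phosphatases, 2 were higher in the knockout, Ccnd2 and Ppp2r1a, and none lower. Ccnd2, a cyclin of spermatogonia, had 3.09 CPM (WT) and 21.1 CPM (knockout), but its knockout counts came from 8 cells, 41.3% of them from 1 cell, and both levels were under 1 CPM without the members holding other markers. Ppp2r1a, a subunit of phosphatase PP2A, was at 13.9 and 23.9 CPM, and at 7.69 and 11.4 CPM without those members, so that none of 22 genes passed in either direction there. No gene of the anaphase-promoting complex (20), spindle (38) or centrosome (25) lists passed in either direction, and of 37 kinetochore genes only Cenpa did, higher in the knockout; without the members holding other markers, 1 of 30 was lower (Spdl1, at 16.3 and 8.65 CPM) and none higher, and none of 18 anaphase-promoting complex, 35 spindle and 24 centrosome genes passed.

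The same held for the meiotic lists. The shares of all genes to set beside these counts are again 1.38% higher and 0.466% lower. Without the members holding other markers they are 1.55% and 0.595%. Of 23 synaptonemal and cohesin genes and 21 piRNA genes none was 1.5 times apart, with medians of 0.01 and -0.03 (1 of 22, Tex12, and none of 21 were lower and none higher without the members holding other markers). Of 19 recombination genes 1 was lower in the knockout, Hfm1, and without those members none of 15 passed, with Hfm1 at 14.2 and 8.65 CPM. Of 57 flagellum genes, the group that the series title names, none was 1.5 times higher or lower in knockout members with or without the members holding other markers, and the median over all members was 0.00, with Odf1 highest at 0.42 and Cfap221 lowest at -0.24. Of the 24 acrosome genes 2 were higher, Izumo2 the most with a log2 ratio of 0.65, and none lower, and without the members holding other markers the same 2 (Izumo2 and Cylc2) passed. In the list of RNA methylcytosine enzymes and readers, Nsun7 was the single lower gene of 8 and none was higher. In the members without other markers, 2 of 7 were lower, Nsun7 and the demethylase Alkbh1, the latter at 22.6 and 10.8 CPM. Nsun2, a methyltransferase of tRNA and mRNA, was at 205 and 233 CPM, and the reader Ybx1 at 2972 and 2690 CPM. Of 30 genes of translational control none passed over all members, and 2 of 28 were lower without the members holding other markers. These were Dazl, an RNA-binding protein of germ cells, at 46.1 and 24.1 CPM there and at 128 and 171 CPM over all members, and Celf1, an RNA-binding regulator. No gene of p53 and apoptosis (10) passed over all members, and 1 of 7 was higher without those members, cytochrome c (Cycs) at 7.53 and 16.1 CPM. Klf4 was the 1 higher gene among 14 of the immediate early and heat shock list, and among 10 without those members, with none lower. Spdl1, Tex12, Alkbh1, Dazl, Celf1 and Cycs were named after their values were seen.

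The genes highest in knockout over WT members were Tnp2, Tnp1, Cyp17a1, Gpd2, Hmgb4, Prm1, Aif1, Hspa1l, Mex3d and Cst8. Of these 10, Tnp2, Tnp1, Hmgb4 and Prm1 are on the list of 12 elongating spermatid markers. Tnp2, a transition protein of condensing chromatin, was at 828 and 1563 CPM in members, 779 and 1557 CPM in pachytene cells, 1329 and 2165.6 CPM in round spermatids, and 1432 and 2120 CPM in Leydig cells, which do not make it. Tnp1 was at 1170 and 2172 CPM in members and 2358 and 3476 CPM in Leydig cells, and the protamine Prm1 at 1444 and 2621 CPM in members and 2590 and 4607 CPM in Leydig cells. Hmgb4, Aif1, Hspa1l and Mex3d were likewise higher in the Leydig cells of the knockout library, and Cst8 was not, at 575 and 511 CPM. The 12 elongating spermatid markers summed to 7849 and 12243 CPM in members and to 92524 and 197496 CPM over all kept barcodes. Of the 12, 4 were 1.5 times or more higher in knockout members, beside 1.38% of all genes. The same 4 were higher without the members holding other markers, beside 1.55% of all genes. The part of free RNA in these differences was not tested.

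Cyp17a1, a Leydig enzyme of androgen synthesis, was at 41.3 CPM (WT) and 80.1 CPM (knockout) in members. A single cell held 76.5% of its knockout counts, and without the cell with the most counts in each library the levels were 32.0 and 19.0 CPM. Gpd2, the mitochondrial glycerol phosphate dehydrogenase, was at 38.3 and 74.2 CPM in members and 409 and 483 CPM in round spermatids.

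The other 9 of the 10 lowest genes were less than 2 times apart. Among them were Ctsl, Tex101, Glipr1l2, Srek1, Fnbp4, Ddx39, Tmem242 and Cks2. Cks2 was 1.35-fold lower (1.23 to 1.48) and also lower in pachytene cells of the knockout. The RNA helicase Ddx39 was at 96.0 and 70.3 CPM, and Srek1, a splicing regulator, at 68.1 and 48.3 CPM. Ctsl was at 72.7 and 42.2 CPM in all members and at 24.1 and 25.7 CPM without the members holding other markers.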

How the data were processed

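Single-cell RNA was measured in 1 WT and 1 Nsun7 knockout testis library (DNBelab C Series, per the labels). The values deposited by the authors are unnormalized counts for each gene in each barcode, made with PISA 0.12 per the file headers. GRCm38 is the build in the submitters' processing notes. For aligner, annotation and barcode filter, the method is not given in the sources used here. WT had 220247156 and the knockout 210531446 counts in 16376 and 16837 barcodes, each with 1001 or more counts. Each barcode was taken as 1 cell and called doublets were kept.

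For each class, the counts of its barcodes in a library were added up and expressed as CPM. Ratios used a prior of 5 CPM, folds are plain ratios of CPM, and genes had to average 50 CPM for calls of 2 times and 10 CPM for calls of 1.5 times in the lists. Intervals at 95% are exact: Poisson for levels, Clopper-Pearson for shares and conditional binomial for folds. Detection was compared after thinning to 2000 counts, in barcodes with 2000 or more. With 1 library per genotype no test was run. The code was tested on simulated data.

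Named genes are Nsun7, the panels, the division genes and, per comparison, the 10 highest and 10 lowest ratios past the limits (between genotypes, with the same sign in shallow and deep members), without predicted, mitochondrial and ribosomal protein genes. Some genes that the rule names are not reported here. Other list members given with values were chosen after their values were seen. The members and lists were chosen with earlier results of these data known. The limits for members with markers of other cells (0.1% for spermatogonium, 1% for Leydig and Sertoli) were set after the data had been seen. Alternatives covered the panel number, the cell filters, doublets, thinning to 5000 counts, cell weights, depth, the CPM minimum, the prior and the scaling. Promoters and genes came from RefSeq (GRCm38.p6) and GENCODE, in which 97.5% of symbols were found. Python 3.11.15, numpy 2.4.6, scipy 1.17.1, pandas 2.3.3, scanpy 1.11.5 and matplotlib 3.10.9 were used.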

Additional observations from a re-analysis of the deposited data

How the results depend on the processing

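Of 126 values of shares and gene counts under the alternatives, 76 stayed within their limits of change and 50 moved. The cause of the moves was not tested beyond what each alternative changes by construction. With 4 or more panel D genes, members were 6.53% (WT) and 1.43% (knockout) of kept barcodes, 61.9% and 58.4% of members plus pachytene cells and 36.4% and 21.7% of members plus round spermatids, and 0 genes were 2 times higher in the knockout; with 2 or more panel D genes, 8 were. Without Piwil1 or Pou5f2 the 3 shares were 11.4%, 73.2% and 50.04% in WT and 4.54%, 80.3% and 46.7% in the knockout, and 42 genes were higher in the knockout. With 500 genes and 10% mitochondrial counts as limits, the WT share was 8.10%, and 1 gene was lower in the knockout. With the rule on 5000 thinned counts, members were 1.39% of the knockout kept barcodes with 5000 or more counts. They were 34.9% (WT) and 20.1% (knockout) of members plus round spermatids. With that rule, 0 genes were higher and 1 lower in the knockout, and 13 were higher and 22 lower than in pachytene cells. Without members holding other markers, an alternative chosen after seeing the data, WT members were 6.88% of kept barcodes and 37.6% of members plus round spermatids, and 47 genes were higher and 89 lower than in pachytene cells.

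With cells weighted equally, 3 genes were higher in the knockout, and 12 were higher and 22 lower than in pachytene cells. With an equal depth mix, 0 were higher in the knockout. At a minimum of 10 CPM, 7 were higher and 5 lower in the knockout, 79 and 120 against pachytene cells and 1244 and 1814 against round spermatids. At 200 CPM these counts were 0 and 0, 5 and 6, and 75 and 174. With a prior of 20 CPM, 0 were higher in the knockout, and 19 were higher and 23 lower than in pachytene cells. With trimmed mean scaling, 48 were higher and 26 lower than in pachytene cells and 271 higher than in round spermatids.

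Of 240 knockout to WT ratios of the 20 named genes under alternatives, 231 kept their direction, and 43 moved out of the counting interval of the main value. These genes were chosen by the same ratios, with the same sign in shallow and deep members. A change of the prior cannot turn a sign. The kept directions are therefore no independent check. Cyp17a1 was at -0.13 on the log2 scale without members holding other markers and at -0.63 without called doublets, and Ctsl at 0.08 without members holding other markers. Tex101 was at 0.71 without Piwil1 or Pou5f2. Of 335 list medians, 256 kept their sign. No paired analysis was possible because each genotype has 1 library. The knockout values rest on 251 members, and Cdc25c in pachytene cells on 18 (WT) and 8 (knockout) counts.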
